A study of Homo sapiens with 2 samples.

Results

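MALAT1 was followed cytosine by cytosine in RNA bisulfite sequencing (RNA BS-Seq) of 2 human cell lines. The MALAT1 cytosines were those on the plus strand of chromosome 11 (hg19, the same assembly as GRCh37) from position 65265233 to 65273940 that were covered by at least 10 counts. This span is 8708 nt long and holds 1431 cytosines, and positions below are given in nt from its first base, so that C3695 is the cytosine at nt 3695. In MCF10A 1049 of them were covered (of 1584002 covered exonic and mitochondrial sites of that library), and in MDA-MB-468 1020 of them (of 1271253). All 1020 sites of MDA-MB-468 were also covered in MCF10A. The sites were picked by position and coverage alone, without their methylation.

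MCF10A is a non-tumorigenic line of human mammary epithelial cells and MDA-MB-468 is a human breast cancer line. The labels give no treatment for either. By the study's methods the lines were cultured in different media and gave 1 library each of poly(A)-selected, bisulfite-treated RNA. With 1 library per line there are no replicates, so each test below compares libraries and not cell types. Of 7 epithelial genes (KRT5, KRT14, KRT17, KRT18, KRT8, CDH1 and EPCAM), 4 had covered sites in MCF10A, where KRT14, CDH1 and EPCAM had none, and 6 in MDA-MB-468, where KRT14 had none, while 3 blood and endothelial genes (PTPRC, CD3E and PECAM1) had none in either library.

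MALAT1 is one of the most abundant long noncoding RNAs of mammalian cells and stays in the nucleus, where it gathers at nuclear speckles, bodies rich in splicing factors. It has no canonical poly(A) tail. RNase P cuts its primary transcript, which releases a small tRNA-like RNA, and the new 3′ end is protected by a triple helix around an A-rich tract. Bisulfite turns cytosine into uracil but leaves 5-methylcytosine (m5C) as it is, so the share of counts read as cytosine at a site is its methylation ratio, here called the unconverted share. Cytosines in base-paired RNA can also escape bisulfite, and such cytosines cannot be told from m5C by the counts.

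The sequences on which the results turn are shown as the GRCh37 plus strand, 5′ to 3′, with T for U. The first is a run of cytosines at chr11:65268917-65268946 in which the capitals mark the 9 cytosines called as m5C in both lines. The second lies at chr11:65269014-65269042, and its capitals mark the bases predicted to pair with that run. The third, at chr11:65269495-65269520, is the other run of 6 cytosines with coverage (capitals), which held no called site. The last 4, of 21 nt each, show called sites outside the run (capital) that follow 3 guanines, at chr11:65269311-65269331, chr11:65267282-65267302, chr11:65268708-65268728 and chr11:65272620-65272640.
Stretch, nt 3685 to 3714: tcttttttccCCCCaCCCCCttaatcagac
Predicted partner, nt 3782 to 3810: ggaagagagaGGGTGGGGGagaaaatgtt
Other run of 6 cytosines, nt 4263 to 4288: tagtttttttCCCCCCagtttgaatt
C4089: aggggaggggCaaatattggc
C2060: aagctaagggCaaaatgtaca
C3486: ggggtgggggCaaaatatgtt
C7398: gtgaggtgggCgctaagcctt

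MALAT1 was among the most deeply covered RNAs of both libraries. Its sites held 484147 counts in MCF10A, 0.799% of the counts of all covered sites, and 680552 counts in MDA-MB-468, 1.60%. The mean coverage of a MALAT1 cytosine was 462 in MCF10A, where 13 of 2719 nuclear genes with at least 100 covered sites in each line were higher and the median gene stood at 21.3. In MDA-MB-468 it was 667, where 2 genes were higher and the median was 21.8. None of the 28 long noncoding RNA genes among them had a higher mean coverage in either library. The median coverage of the sites themselves was 274 in MCF10A against 221.5 in MDA-MB-468, with the deepest site at 3310 and 7232.

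Coverage began and ended inside the annotated gene, which spans chr11:65265159-65273987 in GENCODE and has no coding sequence. The first covered cytosine was C1298 in both libraries, and the 313 cytosines before it had fewer than 10 counts. GENCODE release 44 lists 66 MALAT1 transcripts, of which 33 start within 50 nt of C1298 and 7 start more than 50 nt before it. The last covered cytosine was C8389, which leaves 58 cytosines in the final 319 nt below the minimum. At the minimum itself, the 3 sites of MCF10A with a coverage of 10 held 1 unconverted count in all, and its 3 sites with a coverage of 9 held 0. In MDA-MB-468 the 5 sites with a coverage of 10 held 0, and the 5 sites with a coverage of 9 held 2.

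Most MALAT1 cytosines were read as converted. In MCF10A 8169 of 484147 counts were unconverted, 1.69% (95% Wilson interval 1.65% to 1.72%). In MDA-MB-468 9577 of 680552 counts were unconverted, 1.41% (1.38% to 1.44%). Both lay below the background of their own library, the unconverted share of all covered exonic and mitochondrial sites, which was 1.99% and 1.81%, and below that of the nuclear sites alone, 1.94% and 1.77%. The paper gives a higher background nonconversion rate for each library, after its own site filters, which was not used here. Against a higher background fewer sites could pass the test below. Wilson intervals here cover counting error only, and since neighboring cytosines share reads they are too narrow even for that. The median site had an unconverted share of 1.26% in MCF10A against 0.945% in MDA-MB-468, 164 and 253 sites had no unconverted count, and 19 and 13 sites reached 10%.

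**Figure D1:**
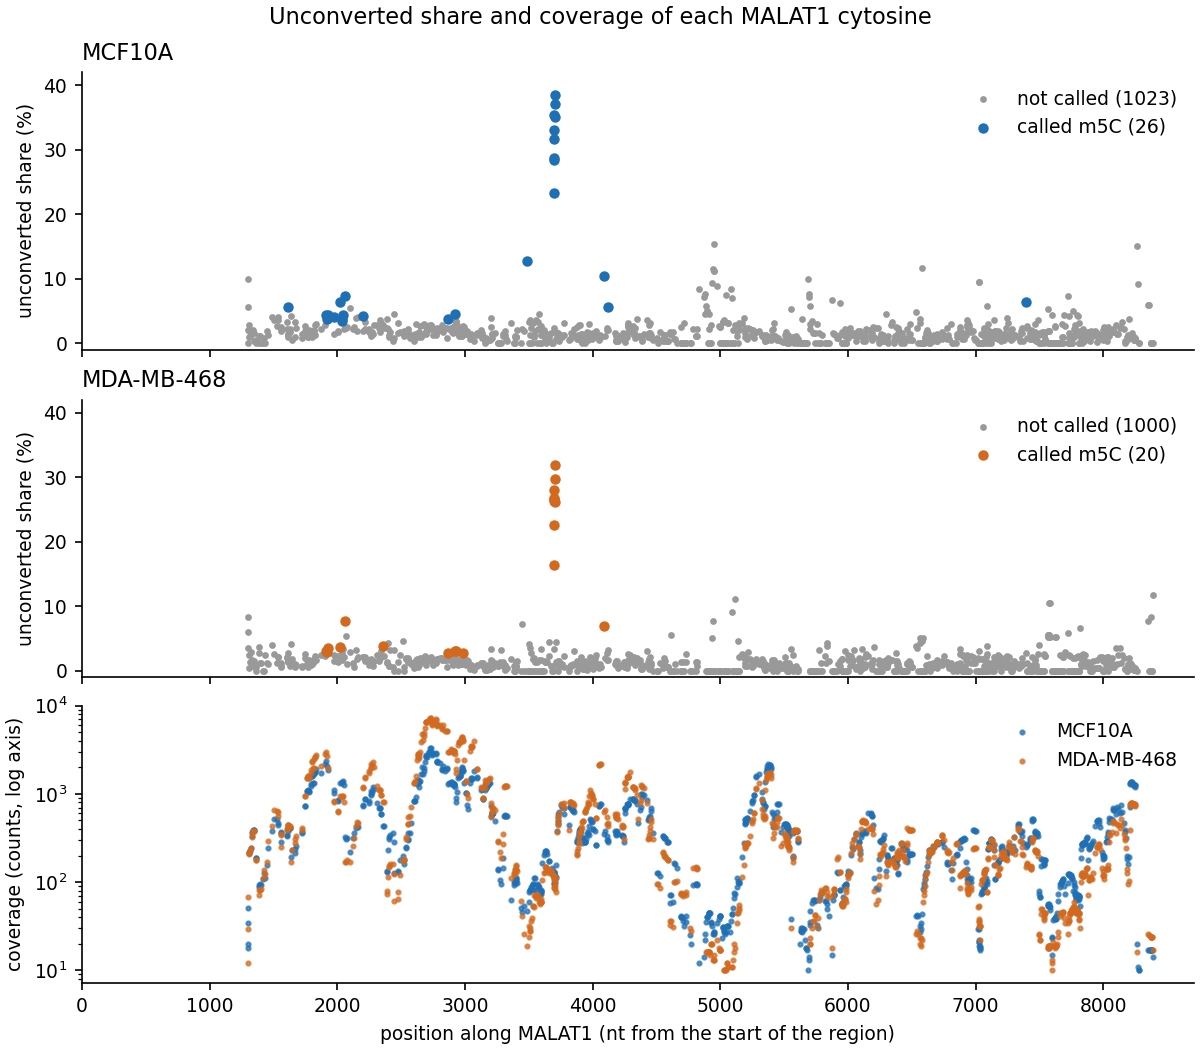
Unconverted share (%) of each covered MALAT1 cytosine against its position (nt) in MCF10A (top) and MDA-MB-468 (middle), with sites called as m5C in color, and coverage in counts on a log axis for both lines (bottom). One narrow stretch near nt 3700 rises to 38.5% and 32.0%, while the other called sites stay at or below 12.8% in MCF10A against 7.78% in MDA-MB-468.

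To ask which cytosines carried more unconverted counts than the background, every site was set against it by Fisher's exact test (one-sided), with Benjamini-Hochberg adjustment over all covered sites of its library. In MCF10A 26 of 1049 MALAT1 sites passed the adjusted threshold of 0.05, 2.48%, where 0.96% of all covered sites of that library passed. In MDA-MB-468 20 of 1020 passed, 1.96%, where 0.84% of all covered sites passed. The count in MCF10A rose to 43 at a coverage minimum of 50, and a ratio of at least 0.1 besides the call left 11 in MCF10A and 9 in MDA-MB-468. Leaving out sites predicted to be paired left 13 in MDA-MB-468. MALAT1 is covered far more deeply than the median site of these libraries, which had 18 counts in each, and depth sets what can be called. The part of depth in the higher share of called sites was not tested. A site with 100 counts needed 9 unconverted counts in either library (9%). With 1000 counts 37 (3.7%) were needed in MCF10A against 35 (3.5%) in MDA-MB-468. Over the MALAT1 sites the lowest callable share had a median of 5.70% in MCF10A against 5.87% in MDA-MB-468, so m5C at a few percent was not detectable at this depth at most of them.

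In all, 29 cytosines were called in one line or the other. Of these, 17 were called in both, which is 65.4% of the MCF10A list and 85% of the MDA-MB-468 list. The 17 consist of 9 in a single stretch of 10 nt, the isolated C4089, and 7 sites between nt 1913 and 2919.

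The stretch ran from C3695 to C3704 (chr11:65268927-65268936) and held the highest unconverted shares of the transcript. Its 9 cytosines together gave 327 unconverted of 1023 counts in MCF10A, 32.0% (29.2% to 34.9%), and 230 of 893 in MDA-MB-468, 25.8% (23.0% to 28.7%). These 9 sites held 0.211% of the MALAT1 counts of MCF10A but 4.003% of its unconverted counts, and 0.131% and 2.40% in MDA-MB-468.

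The edges of the stretch were sharp. The first cytosine of the same run, C3693, had 0 unconverted of 129 counts in MCF10A, and MDA-MB-468 had 0 of 117 there, which allows a share of up to 2.33% and 2.56% by a limit of 3 counts (counting error only). The next, C3694, had 3 of 128 (2.34%) and 4 of 118 (3.39%). One base further, C3695 had 30 of 129 (23.3%) and 19 of 116 (16.4%), and the Wilson intervals of C3694 and C3695 did not overlap in either library.

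Within the stretch the point estimates were higher toward the 3′ side, although the Wilson intervals of the 9 sites overlapped in each library. The highest value in MCF10A was at C3703, with 42 of 109 counts (38.5%, 29.9% to 47.9%, adjusted p = 6.06e-39 by Fisher's exact test), and the highest in MDA-MB-468 was at C3704, with 31 of 97 (32.0%, 23.5% to 41.8%, adjusted p = 9.56e-27 by Fisher's exact test). The adenine at nt 3699 splits the stretch into a part of 4 called cytosines, in a run of 6, and a run of 5. The run of 5 cytosines had 35.9% in MCF10A against 28.6% in MDA-MB-468. Past it, C3710 was back at 2 of 115 (1.74%) and 1 of 77 (1.30%). In the 100 nt on either side, 29 cytosines were covered and none was called, with a pooled share of 1.16% in MCF10A against 1.19% in MDA-MB-468.

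**Figure D2:**
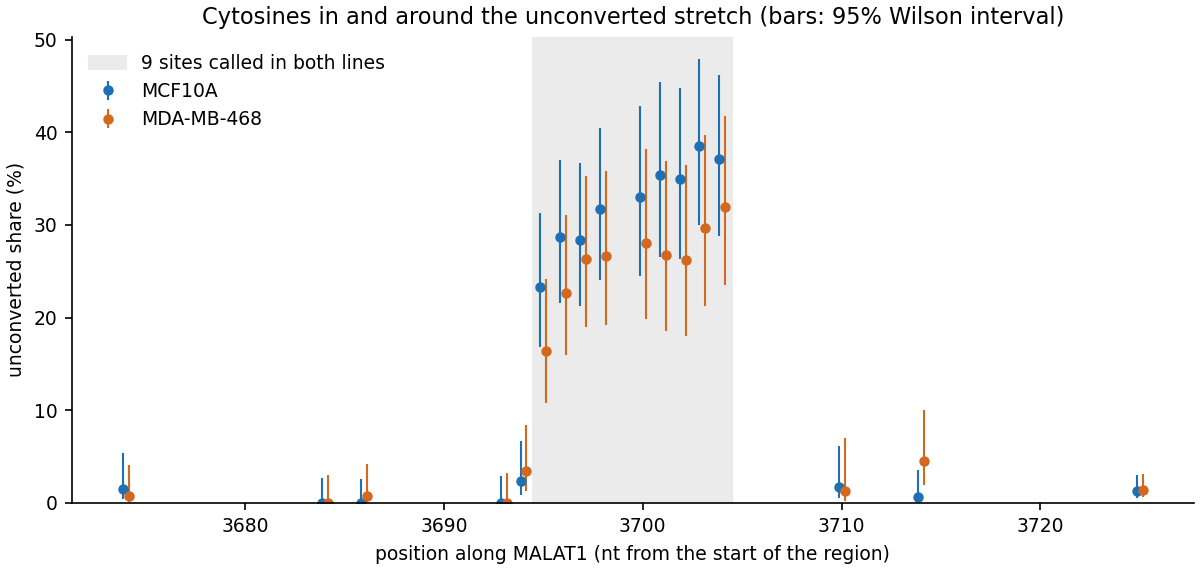
Unconverted share (%) of the cytosines within 25 nt of the stretch against position (nt), with 95% Wilson intervals as bars, MCF10A and MDA-MB-468 drawn side by side. The 9 cytosines on the gray band lie between 16.4% and 38.5%, and the cytosines on either side lie at or below 4.46%.

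The stretch also lay in predicted double-stranded RNA. The transcript was folded with RNAfold in windows of 2000 nt, at 70 degrees, with pairing up to 150 nt apart, after the procedure in the study's methods. In the predicted structure 5.1% of its bases were paired, among them 109 covered cytosines of MCF10A and 101 of MDA-MB-468. These counts depend on the setting. A probability over 0.5 of pairing with any base held for 597 covered cytosines of MCF10A and 583 of MDA-MB-468. Folding at 37 degrees paired 412 and 399. Bases 3694 to 3702 were paired in the predicted structure, with the guanine-rich bases 3792 to 3800 as partners. Their pairing probabilities ran from 0.936 to 0.985. A pairing probability here is that of pairing with any base, not with the partner named. Of the 9 called cytosines 7 were paired in that structure, and C3703 and C3704, which had the highest shares, were not, although their pairing probabilities were 0.739 and 0.845. C3694 was predicted paired with a probability of 0.939 and had a low share. The part of pairing in the unconverted counts of the stretch was not tested.

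Paired cytosines had the higher pooled share on MALAT1 only with the stretch included. The 109 paired sites of MCF10A had 1.99% unconverted against 1.65% at the 940 other sites, a difference of 0.333 percentage points (0.207 to 0.465, from the Wilson intervals). In MDA-MB-468 the 101 paired sites had 1.52% against 1.39%, a difference of 0.126 points (0.0349 to 0.223). Without the stretch, a setting added after seeing the data, the paired sites were the lower ones, at 1.52% against 1.63% in MCF10A and 1.30% against 1.38% in MDA-MB-468. Both differences also turned when pairing was read from a probability over 0.5 or when the RNA was folded at 37 degrees. All 7 called sites that were predicted paired lay in the stretch, in each library.

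No other covered run of cytosines reached the shares of the stretch. The covered run of 6 at nt 4273 to 4278, of which 4 bases were predicted paired, had 106 unconverted of 4603 counts in MCF10A (2.30%), and MDA-MB-468 had 123 of 9385 (1.31%), with no site called. The run of 4 at nt 5531 to 5534 was predicted paired throughout and had 0.441% and 0.0978%. Over the covered runs of 3 cytosines the pooled share was 0.961% and 1.06% with no call, and over the runs of 4 it was 1.19% and 0.904%, with 1 call in MCF10A (C1614) and none in MDA-MB-468.

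Outside the stretch the called sites had low unconverted shares and mostly deep coverage. The 17 such sites of MCF10A pooled to 4.54% unconverted at a median coverage of 1203, and the 11 of MDA-MB-468 to 3.16% at a median coverage of 1972.

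C4089 (chr11:65269321) was the clearest of them. It had 36 of 347 counts unconverted in MCF10A (10.4%, 7.59% to 14.0%, adjusted p = 6.76e-13 by Fisher's exact test) and 43 of 627 in MDA-MB-468 (6.86%, 5.13% to 9.11%, adjusted p = 1.16e-10 by Fisher's exact test). It was not paired in the predicted structure, although its pairing probability was 0.792. It stood alone, without a called neighbor within 10 nt. C2060 had 24 of 327 (7.34%) and 13 of 167 (7.78%), the only called site outside the stretch among the 10 highest of MDA-MB-468. C3486, the one outside the stretch among the 10 highest of MCF10A, rested on 6 of 47 counts (12.8%, 5.98% to 25.2%), and MDA-MB-468 had 0 of 19 there, which allows a share of up to 15.8%.

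The other sites called in both lines lay in deeply covered RNA near the 5′ side of the covered part. C1913, C1921 and C1929 follow each other at steps of 8 nt. C1913 had 104 of 2349 counts unconverted in MCF10A (4.43%) against 91 of 3020 in MDA-MB-468 (3.01%), C1921 had 3.71% and 2.91%, and C1929 had 4.42% and 3.50%. C2020 had 85 of 1333 (6.38%) and 34 of 940 (3.62%). C2868 had 3.78% and 2.79%, and C2919 had 4.49% and 3.05%. All 6 were higher in MCF10A, and none passed the test between libraries given below.

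The deepest sites were not among the called ones. The 5 deepest sites of MCF10A lay between C2715 and C2737 and none was called, the closest being C2729 with 94 of 3296 counts (2.85%, adjusted p = 0.0528 by Fisher's exact test). The 5 deepest of MDA-MB-468 lay between C2721 and C2773 and none was called there. C2729 was the deepest site of MDA-MB-468, with 143 of 7232 counts unconverted (1.98%). At C2772, 79 of 7053 counts were unconverted (1.12%).

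Among the sites called in 1 library only, C2046 (adjusted p = 0.0724) and C2932 (adjusted p = 0.224, Fisher's exact test) came closest to a call in the other. The rest had an adjusted p of 0.981 or above there by the same test. The 9 sites called only in MCF10A (C1614, C1972, C2034, C2038, C2046, C2200, C3486, C4123 and C7398) had shares of 0% to 3.41% in MDA-MB-468, above its background at 6 of them, and 3 had an unadjusted p below 0.05 there. The 3 sites called only in MDA-MB-468 (C2359, C2932 and C2984) had shares of 2.60% to 3.42% in MCF10A, above its background at all 3, and 2 had an unadjusted p below 0.05 there. A call in 1 library and not in the other does not show a difference between them.

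Most called sites with another called site nearby belonged to the stretch. In MCF10A 15 of 26 had another called site within 10 nt and in MDA-MB-468 12 of 20, forming 14 and 10 groups of which 11 and 8 were single sites. Of the sites with a near neighbor 9 belonged to the stretch in each library. The same share over all covered sites of a library is not given here.

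The base before a cytosine went with its unconverted share. Cytosines after U had the lowest share, 0.966% in MCF10A against 0.804% in MDA-MB-468, and none of 281 and 271 was called. Over all nuclear sites the share after U was also the lowest, 1.53% in MCF10A (0.385% of such sites called) and 1.35% in MDA-MB-468 (0.344% called). Outside the stretch, cytosines after a purine (A or G) made up 53.2% of the covered MALAT1 sites of MCF10A but 16 of its 17 called sites, and 53.4% of those of MDA-MB-468 but 11 of its 11. With the stretch included, 52.8% of the MALAT1 sites of MCF10A and 17 of its 26 called sites (65.4%) followed a purine. In MDA-MB-468 these were 53.0% and 12 of 20 (60%). Over all nuclear sites, with no stretch left out, 48.4% and 48.5% of sites followed a purine, as did 43.3% and 42.8% of the called ones. These counts describe single libraries of 1 transcript, were noticed in the data and carry no test.

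A further feature seen in the printed sequences was a run of guanines just before the called cytosine. Of the MALAT1 sites outside the stretch, 19 of MCF10A followed the letters GGG on the plus strand, and 4 of them were called (21.1%), against 13 of 1021 others (1.27%). In MDA-MB-468 2 of 18 were called (11.1%), against 9 of 993 others (0.906%). Their pooled shares were 4.20% against 1.60% in MCF10A and 3.14% against 1.36% in MDA-MB-468. The median coverage was no higher at these sites, 212 against 275 and 168.5 against 228. The letters were chosen after the called sites had been seen, so the higher share of calls is not an independent result. No share of calls after GGG over all nuclear sites is given here, so whether it is particular to MALAT1 was not tested. A match describes the sequence and not a binding site.

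Cytosines before G had a high share of calls as well, 6 of 73 in MCF10A (8.22%) against 4 of 73 in MDA-MB-468 (5.48%), with pooled shares of 2.05% and 1.72%. Those before U had 2 calls among 378 and 2 among 364. Over all nuclear sites those before G also had the highest share of calls of the 4 bases, 1.33% in MCF10A against 1.11% in MDA-MB-468 at pooled shares of 2.25% and 2.13%, and those before U the lowest, 0.417% and 0.378%.

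Along the transcript the unconverted share was uneven. From nt 1501 to 3000 the windows of 500 nt lay between 2.02% and 2.70% in MCF10A and between 1.61% and 1.87% in MDA-MB-468, and from nt 5001 on they lay at or below 1.37% and 1.04%. The window from nt 3001 to 3500, between them, was the second lowest in both libraries, at 1.05% and 0.710%. In windows of 500 nt it was highest at nt 2001 to 2500 in both libraries, 2.70% (2.52% to 2.89%) in MCF10A and 1.87% (1.74% to 2.01%) in MDA-MB-468. It was lowest at nt 5501 to 6000 in both, 0.759% (0.622% to 0.926%) and 0.651% (0.514% to 0.824%). The window from nt 3501 to 4000 stood at 2.35% and 1.70% with the called sites and at 1.19% and 1.02% without them. Beyond nt 4500 MCF10A had 1 called site, C7398, with 16 of 253 counts (6.32%, adjusted p = 0.00788 by Fisher's exact test), and MDA-MB-468 had none.

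**Figure D3:**
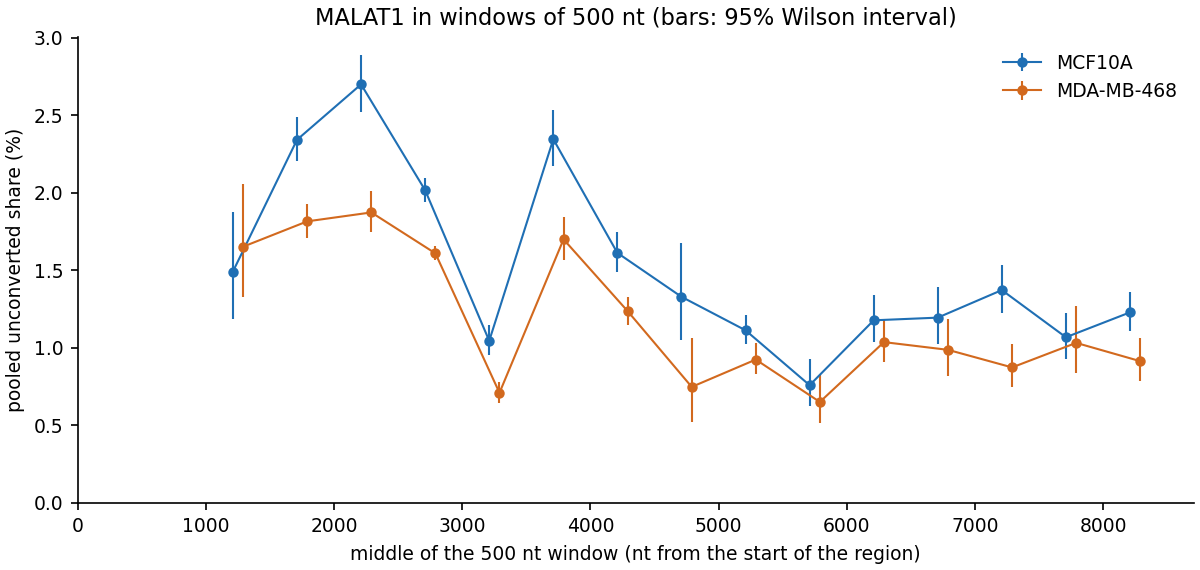
Pooled unconverted share (%) in windows of 500 nt along MALAT1, with 95% Wilson intervals as bars and the points of the lines set slightly apart. Both lines peak at nt 2001 to 2500 (2.70% and 1.87%) and are lowest at nt 5501 to 6000 (0.759% and 0.651%), and MDA-MB-468 is lower in 14 of 15 windows.

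The shape of this profile was alike in both libraries. Over the 15 windows with covered sites the shares had a Pearson r of 0.905 and a Spearman rho of 0.807, given as a description, since the windows share base composition and transcript. Coverage followed the same course, with a rho of 0.95 between the median coverages. The window at nt 2501 to 3000 held 27.0% of the MALAT1 counts in MCF10A against 44.6% in MDA-MB-468, so the pooled share of the gene was weighted toward it, at 2.02% and 1.61%.

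To ask whether single MALAT1 cytosines differed between the lines, the counts of each of the 1020 shared sites were compared by Fisher's exact test (two-sided), adjusted over the 812729 sites covered in both libraries. The ratio was lower in MDA-MB-468 at 594 sites, higher at 341 and equal at 85, with a median difference of -0.240 percentage points. No MALAT1 site passed the adjusted threshold in either direction by Fisher's exact test, with a smallest adjusted p of 0.131, and no other test was run. Over all 812729 sites 0.0691% passed as lower in MDA-MB-468 and 0.0202% as higher. At an unadjusted p below 0.05, 39 MALAT1 sites were lower in MDA-MB-468 and 2 were higher. That no site passed does not show that the lines are alike.

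All 9 cytosines of the stretch were lower in MDA-MB-468, with differences from -8.86 to -1.98 percentage points and unadjusted p from 0.203 to 0.772 (Fisher's exact test). They share reads and are not 9 independent observations. At C4089 the difference was -3.52 points (unadjusted p = 0.0655, Fisher's exact test), and at C2020 -2.76 points (unadjusted p = 0.00396, adjusted p = 1, Fisher's exact test).

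**Figure D4:**
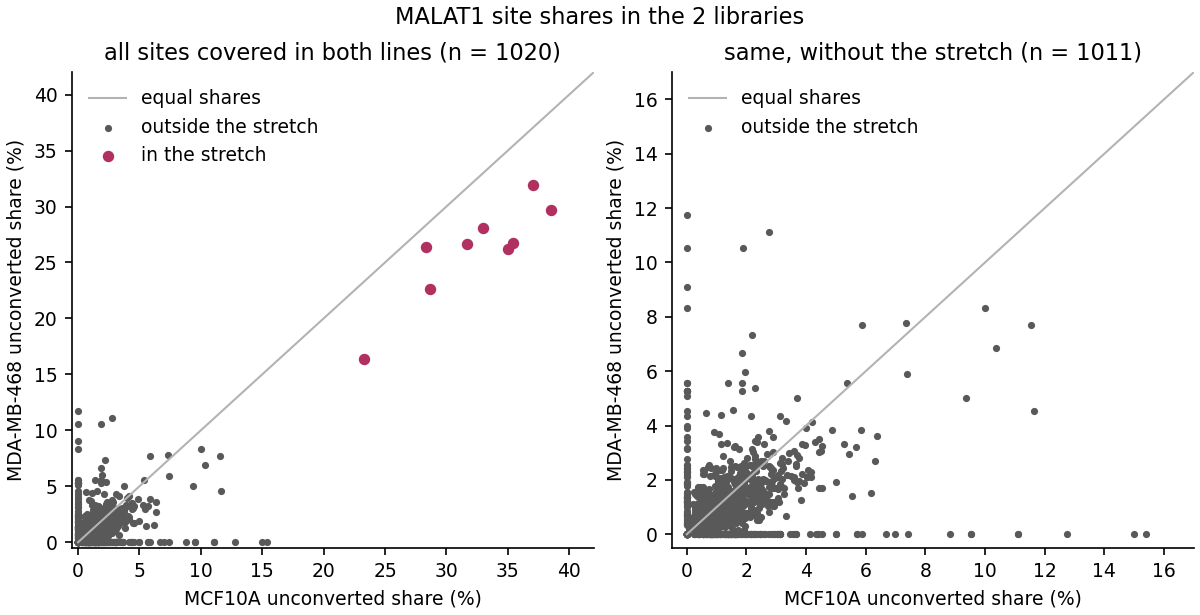
Unconverted share (%) of each MALAT1 site in MDA-MB-468 against MCF10A, over the 1020 sites covered in both (left, with the stretch in color) and over the 1011 sites outside the stretch (right). All 9 sites of the stretch lie below the line of equal shares, and Pearson's r falls from 0.806 to 0.242 without them.

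The linear relation of the site ratios rested on the stretch, while their ranks did not. Pearson's r over the 1020 sites was 0.806 and fell to 0.242 without its 9 cytosines, while Spearman's rho was 0.339 with them and 0.321 without. These values describe sites that share libraries, reads and sequence.

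The lower share in MDA-MB-468 was not particular to MALAT1. Of 2719 nuclear genes 2096 (77.1%) had a lower pooled share in MDA-MB-468, with a median log2 ratio of -0.36, and MALAT1 stood at -0.26. Over all sites covered in both libraries 58.4% of those that were not equal were lower in MDA-MB-468, and on MALAT1 63.5%.

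Among genes MALAT1 had a middling to low share. In MCF10A 1831 of 2719 genes were above its 1.69% and the median gene was at 1.97%. In MDA-MB-468 1624 were above its 1.41% and the median gene was at 1.53%. The genes closest to it in both libraries were FTL, which encodes the ferritin light chain (1.68% and 1.41%), the splicing helicase gene DHX38 (1.69% and 1.42%), and NECAB3 (1.71% and 1.41%), by the distance of their log2 shares over the 2 libraries. FTL had 22 called sites of 182 in MCF10A, and 16 of 184 were called for MDA-MB-468, and DHX38 and NECAB3 had none.

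NEAT1, the scaffold RNA of paraspeckles and the genomic neighbor of MALAT1, went the other way between the lines. Its pooled share was 2.18% in MCF10A against 2.55% in MDA-MB-468, with 64 of 3699 and 42 of 2153 sites called. These shares come from unlike sets of covered NEAT1 sites, and no share over the sites covered in both libraries was computed. The difference in direction from MALAT1 was not tested.

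**Figure D5:**
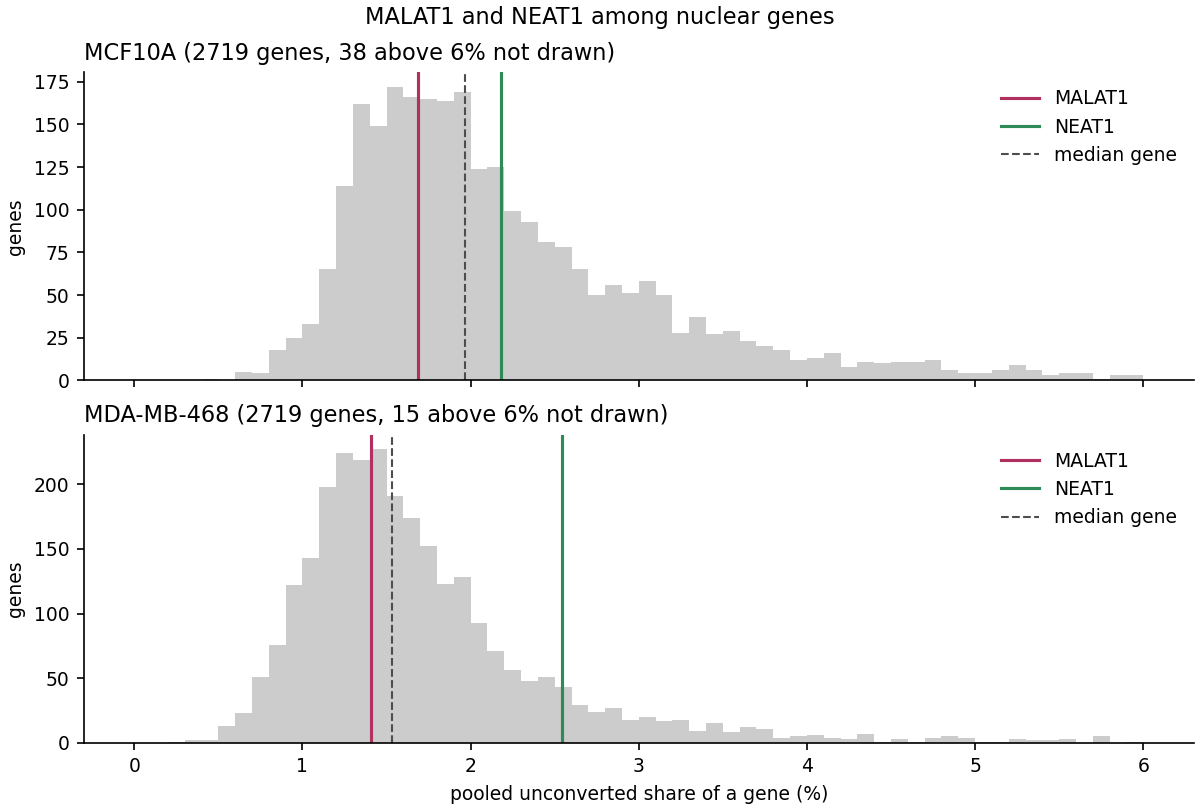
Number of nuclear genes by pooled unconverted share (%) in MCF10A (top) and MDA-MB-468 (bottom), over the 2719 genes with at least 100 covered sites in each line, with MALAT1, NEAT1 and the median gene as vertical lines. MALAT1 lies below the median gene in both (1.69% against 1.97%, and 1.41% against 1.53%), and NEAT1 lies above it.

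A list of 22 other long noncoding RNAs, NEAT1 included, was set beside MALAT1. In MCF10A 14 had covered sites and 5 had a called site (NEAT1, SNHG1, OIP5-AS1, NORAD and RMRP), with 98 of 5280 sites called, 1.86%, beside 0.96% of all covered sites. In MDA-MB-468 16 had covered sites and 2 a called site (NEAT1 and RMRP), with 43 of 3056 called, 1.41%, beside 0.84%. NEAT1 held 64 of the 98 and 42 of the 43 calls. RMRP, the RNA of RNase MRP, was the deepest of the 22 in both, at a mean coverage of 225 and 306, with a pooled share of 1.09% and 0.887% and 1 called site of 91 in each. H19, KCNQ1OT1, MEG3, MIAT and RPPH1 had no covered site in either library. The median pooled share of the list members with at least 100 covered sites was 1.99% in MCF10A (6 genes), above MALAT1, and 1.58% in MDA-MB-468 (3 genes), also above it.

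The mRNAs of 13 nuclear speckle proteins were also set beside it. All 13 had covered sites in both libraries, and 4 had a called site in MCF10A against 3 in MDA-MB-468. Of their sites 0.629% were called in MCF10A, beside 0.96% of all covered sites. In MDA-MB-468 0.812% were called, close to the 0.84% of all covered sites. SRRM2, which encodes a scaffold protein of speckles, held 21 of the 35 calls in MCF10A and 21 of the 32 in MDA-MB-468. It had 2194 and 1522 covered sites, at pooled shares of 1.63% and 1.54%. SRSF5, a splicing factor gene, had 10 of 254 and 9 of 214 sites called at 2.15% and 2.13%. The median pooled share of the list members with at least 100 covered sites was 2.06% in MCF10A (13 genes) and 1.99% in MDA-MB-468 (9 genes), above MALAT1 in each.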

How the data were processed

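RNA BS-Seq was analyzed for MCF10A and MDA-MB-468, 1 library each. The authors trimmed the reads with Trim Galore, aligned them to hg19 with MeRanGs and called cytosines with MeRanCall of MeRanTK, with filters on base quality and read duplication. Versions are not given in the sources used here, and the submitters' processing notes also name Bismark. The deposited values are raw counts of unconverted and converted reads per cytosine, from a coverage of 5. No normalization was applied to these counts. Read duplicates and reads that map to several places could change them, and no unmodified control RNA was used here to measure conversion.

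Kept sites had at least 10 counts and lay on an exon of a basic transcript of GENCODE release 44 (same strand), on the mitochondrial chromosome or in the MALAT1 span. The files held 76098976 counts in MCF10A and 90960018 in MDA-MB-468, of which 60580227 and 42429746 lay at kept sites. All kept nuclear sites fell on a cytosine of GRCh37. The background was the unconverted share of all kept sites of the library. Sites were called by a one-sided Fisher's exact test, with Benjamini-Hochberg adjustment at 0.05 over all kept sites, and lines were compared by a two-sided Fisher's exact test. Folding used ViennaRNA 2.7.2 (windows of 2000 nt every 1000 nt, MEA alpha 0.1). The structure filter of the methods was tried as an alternative for MALAT1 alone. There the paired MALAT1 sites were left out, with the background and the adjustment unchanged. Python 3.11.15, matplotlib 3.10.9, pysam 0.24.0, numba 0.67.0, pandas 2.3.3, scipy 1.17.1 and numpy 2.4.6 were used, and the tests were checked on simulated data.

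The members, lists and tests were chosen with earlier results of these data known. Named sites were, in each line, the 10 called sites with the highest ratio at a coverage of at least 20 and the 5 deepest sites. The rule also named the 5 sites that differed most past the threshold between lines, of which there were none. Other genes were the 3 nearest in log2 share and the 2 lists. The remaining called sites, the uncalled neighbors of the stretch, other cytosine runs and the cell type markers were named after their values were seen, and 1 further marker is not reported here. Alternatives were the coverage minimum, the background, the test, a minimum ratio, the folding and the window length.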

Additional observations from a re-analysis of the deposited data

Results flagged for a closer look

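The strand opposite MALAT1 held covered cytosines that were almost all unconverted. These minus-strand sites lie outside the comparisons above. In MCF10A 22 minus-strand sites with at least 10 counts had 2023 of 2036 counts unconverted, 99.4% (98.9% to 99.6%), at a coverage of up to 113. In MDA-MB-468 23 sites had 3792 of 3813 unconverted, 99.4% (99.2% to 99.6%), at a coverage of up to 209. All of them lay in 1 block of 67 nt, nt 1834 to 1900 (chr11:65267066-65267132), which overlaps an exon of TALAM1, the annotated antisense gene of MALAT1. On the plus strand this block holds 23 guanines and 1 cytosine, and that cytosine, with 1721 and 2051 counts, was 2.21% and 2.49% unconverted. Its middle, chr11:65267085-65267114 on the plus strand, has the guanines in capitals, opposite which the minus-strand cytosines lie.
Block, nt 1853 to 1882: GGGaGtGGtaGGatGaaacaatttGGaGaa

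MDA-MB-468 had 2 more such blocks below the minimum, nt 1466 to 1511 with 78 of 78 counts unconverted and nt 3083 to 3123 with 90 of 90. The cause was not tested.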

How the results depend on the processing

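No paired analysis was possible because each line has 1 library, which also left no replicate to leave out. The pooled share stayed within its interval at coverage minimums of 5, 20 and 50 and without paired sites, and moved with the weighting or with the highest sites left out. As the mean of site ratios it was 1.86% in MCF10A against 1.44% in MDA-MB-468, without the called sites 1.51% and 1.32%, and without the stretch (added after seeing the data) 1.62% and 1.38%. Of the 17 sites called in both lines, 14 (the 9 of the stretch, C1913, C1929, C2060, C2919 and C4089) were called in both under all 6 alternatives of the test, background and coverage. The higher background that the paper gives was not among these alternatives. In MDA-MB-468 the shares of C1913 (3.01%) and C2919 (3.05%), both among the 14, lay little above that rate. C2984 (2.68%), called in MDA-MB-468 only, lay below it. Calls in MCF10A rose to 43 at a coverage minimum of 50, where fewer sites were tested. A ratio of at least 0.1 besides the call left 11 in MCF10A, 9 in MDA-MB-468 and 9 in both, and leaving out paired sites left 13 in MDA-MB-468 and 10 in both. Other settings gave 19 to 33 calls in MCF10A, 14 to 24 in MDA-MB-468 and 14 to 20 in both. No MALAT1 site differed between lines under any of 6 alternatives. Of these, the minimum difference and the leaving out of paired sites only drop sites from the main result, so they could add none. Paired minus unpaired share reversed in MCF10A to -0.0919 points with a pairing probability over 0.5, -0.136 with folding at 37 degrees and -0.116 without the stretch, and in MDA-MB-468 to -0.0702, -0.0575 and -0.0890. The cause was not tested. With windows of 250 nt the highest share moved to nt 3501 to 3750, the window of the stretch (4.71% and 4.30%), and with windows of 1000 nt to nt 1001 to 2000 (2.26% and 1.80%).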
